A study of Homo sapiens with 15 samples.

Results

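The integrins and laminins described here are the 38 genes whose symbol names an integrin α subunit, an integrin β subunit or a laminin chain, among the 57820 gene identifiers of an RNA-seq count table. They comprise 18 integrin α genes, 8 integrin β genes and 12 laminin genes and were picked by a pattern in the symbol. The counts came from 15 libraries of A673, a single Ewing sarcoma cell line, with 3 libraries for each of 5 conditions. Every culture received a retroviral shRNA on day 1 and a cDNA vector on day 5, followed by 2 µg/mL puromycin and 400 µg/mL hygromycin B up to day 16. iLuc cells carried an shRNA against luciferase with an empty vector, and so kept endo-EF, the endogenous EWS/FLI fusion. iEF cells carried the shRNA against EWS/FLI with the same empty vector. Rescued cells carried the EWS/FLI shRNA and 1 of 3 cDNAs in a retroviral backbone, outside the fusion's own locus. These were WT-EF (wildtype EWS/FLI), Δ22 (which lacks the EWS domain) and DAF (in which tyrosines of the EWS domain were changed to alanine). The comparisons ask how much of the pattern set by endo-EF each cDNA restores after knockdown. The labels number the libraries of a condition 1 to 3 without saying that they were separate cultures, so p-values measure the spread between these libraries, which may be technical.

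Integrins are cell-surface receptors made of an α and a β subunit. They bind the extracellular matrix outside the cell and, through an adhesion plaque of proteins such as talin and vinculin, the actin cytoskeleton inside it. Laminins are secreted trimers of an α, a β and a γ chain and are a main component of basement membranes. EWS/FLI fuses the EWS domain to the ETS DNA-binding domain of FLI, which recognizes a GGAA core, and is known to activate some genes and repress others.

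Promoters were looked up because the ETS domain of every construct, Δ22 included, recognizes GGAA. Of the 38 genes, 26 had a promoter in RefSeq's table for GRCh38.p14, with 33 windows of 250 bases before to 50 bases after a start site. Only the 250 bases before the start were searched, in these windows and in those of all genes. The letters GGAA, read on either strand (GGAA or TTCC), stood in 31 of the 33 windows, or 93.9%, and in 92.7% of the 35116 windows of all genes. The tandem GGAAGGAA, whose letters hold the shorter motif at both ends, stood in 2 of the 33 windows, or 6.06%, and in 3.06% of all windows. The 250 bases before the start follow for 4 of these genes, with GGAA and TTCC in capitals. LAMA4 and ITGA8 are shown because they are among the genes that differed most between iLuc and iEF cells, and ITGA10 and LAMB2 because they hold the tandem.
LAMA4 (chr6:112254568-112254817, GRCh38.p14, minus strand): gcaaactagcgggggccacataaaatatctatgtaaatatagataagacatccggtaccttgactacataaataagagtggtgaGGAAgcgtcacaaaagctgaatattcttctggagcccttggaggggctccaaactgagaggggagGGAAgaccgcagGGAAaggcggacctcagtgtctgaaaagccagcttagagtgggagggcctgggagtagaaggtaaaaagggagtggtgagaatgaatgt
ITGA8 (chr10:15719923-15720172, GRCh38.p14, minus strand): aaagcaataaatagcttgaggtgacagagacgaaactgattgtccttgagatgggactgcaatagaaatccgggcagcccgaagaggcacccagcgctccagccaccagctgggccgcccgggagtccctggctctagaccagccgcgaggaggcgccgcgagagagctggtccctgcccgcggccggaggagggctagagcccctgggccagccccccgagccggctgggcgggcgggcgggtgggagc
ITGA10 (chr1:145910051-145910300, GRCh38.p14, minus strand): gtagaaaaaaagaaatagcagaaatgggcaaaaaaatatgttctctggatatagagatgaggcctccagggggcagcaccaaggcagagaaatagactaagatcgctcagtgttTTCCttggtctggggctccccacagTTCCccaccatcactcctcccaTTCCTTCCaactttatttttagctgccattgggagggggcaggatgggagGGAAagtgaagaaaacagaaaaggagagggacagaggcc
LAMB2 (chr3:49133051-49133300, GRCh38.p14, minus strand): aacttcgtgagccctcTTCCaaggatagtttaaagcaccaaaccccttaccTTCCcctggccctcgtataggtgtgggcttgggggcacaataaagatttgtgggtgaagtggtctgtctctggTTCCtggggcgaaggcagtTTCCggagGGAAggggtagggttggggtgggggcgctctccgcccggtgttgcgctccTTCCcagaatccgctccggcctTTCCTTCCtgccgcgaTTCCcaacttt
The *LAMA4* window held 3 matches, the *LAMB2* window 9, the *ITGA10* window 5 and the *ITGA8* window none. These matches describe letters only, and nothing was measured here of what binds them.

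Total counts per library ran from 28659475 to 41859880. Levels are given as CPM, the counts of a gene relative to a library size that edgeR scaled by its TMM method. *FLI1*, whose reads cover both endo-EF and the cDNAs without separating them, was at 47.8 to 52.4 CPM in iLuc libraries and at 12.9 to 15.5 CPM in iEF libraries. It was at 16.0 to 18.7 CPM with WT-EF, 24.4 to 36.2 CPM with Δ22 and 22.1 to 27.3 CPM with DAF. Of 6 markers of Ewing sarcoma cells, *NR0B1*, *NKX2-2*, *STEAP1*, *LIPI* and *CCND1* were detected in every condition, while *CD99*, a defining surface marker, had 0 to 3 counts per library in this table. In bulk RNA, fewer cells with a transcript and less of it per cell cannot be told apart.

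Most integrin and laminin genes were lower in cells with endo-EF than after its knockdown. Of the 37 genes tested, 25 (67.6%) were lower and 4 (10.8%) higher in iLuc than in iEF cells at an adjusted p under 0.05 (quasi-likelihood test of edgeR, with the Benjamini-Hochberg adjustment made over all genes tested). Over the 28793 genes with a mean of 1 count or more, 22.1% were lower and 19.5% higher. All 25 lower genes and 3 of the 4 higher genes also differed more than 2-fold (an absolute log2 fold change over 1). The share of all genes tested that passed both limits is not given here. The median log2 fold change was -2.27 over the 37 genes and 0.04 over all genes tested. The 29 genes called differed in the same direction in all 3 replicate sets. *ITGAD*, with 0 to 3 counts per library, was the member that was not tested. In 25 alternative analyses the number of members called in this comparison stayed between 28 and 33.

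**Figure D1:**
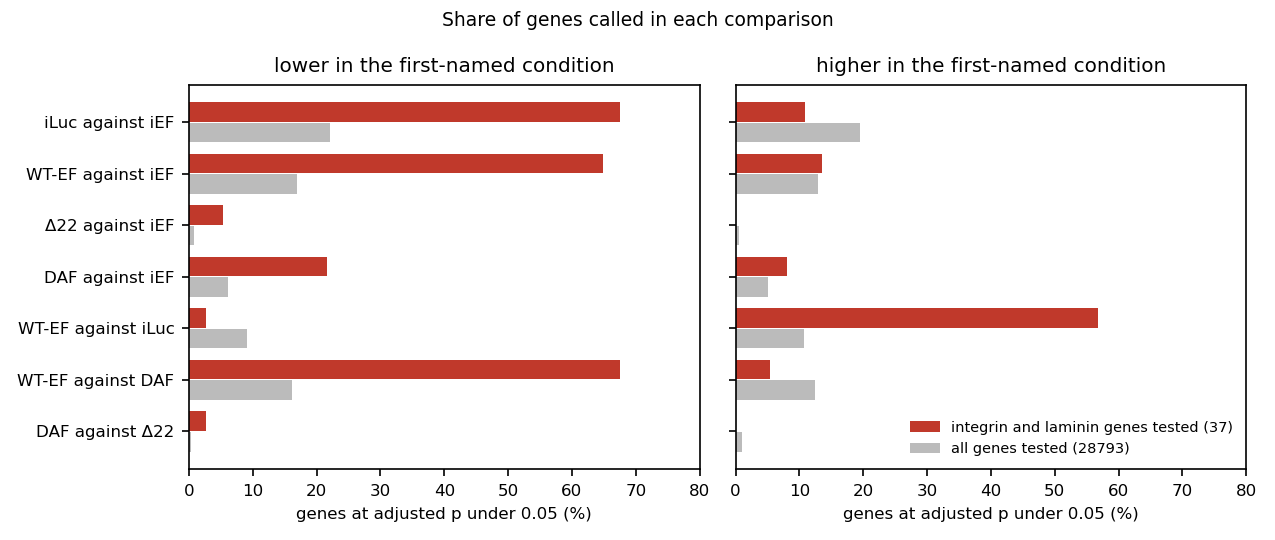
Share of the 37 tested integrin and laminin genes (red) and of all 28793 genes tested (grey) that were lower (left) or higher (right) in the condition named first, in percent, for 7 comparisons. The red bars reach 67.6% lower for iLuc against iEF and 64.9% lower for WT-EF against iEF, against grey bars of 22.1% and 17.0%.

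Most of the genes were also lower after rescue with WT-EF than in the same 3 iEF libraries. WT-EF-rescued cells had 24 of the 37 genes (64.9%) lower and 5 (13.5%) higher than iEF cells, against 17.0% and 12.9% of all genes tested. The median log2 fold change was -1.38, against -0.01 over all genes. In the direct comparison of WT-EF-rescued with iLuc cells, 21 of the 37 genes (56.8%) were higher and 1 (2.7%) lower, where 10.7% and 9.03% of all genes were. The median of that comparison was 0.86, and it was -0.01 over all genes. These comparisons share libraries with each other, so their values are given side by side for each gene.

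Fewer of the genes were called with the DAF and Δ22 mutants. With DAF, 8 of the 37 genes (21.6%) were lower and 3 (8.1%) higher than in iEF cells, against 6.19% and 5.00% of all genes tested, and the median was -0.20. With Δ22, 2 of the 37 genes (5.4%) were lower and none was higher, against 0.830% and 0.472% of all genes, and the median was -0.02. At an unadjusted p under 0.05, 10 genes were lower and 8 higher with Δ22. Over all 28793 genes tested, 3918 passed that limit in either direction. DESeq2's Wald test called 3 members lower and 1 higher with Δ22, against 615 lower and 463 higher of all 28793 genes. The 11 genes called with DAF became 7 without DAF replicate 2 or iEF replicate 3. The 2 called with Δ22 became 0 without Δ22 replicate 2 or iEF replicate 1 and 7 without WT-EF replicate 3. Over all genes the calls with DAF went from 1783 lower and 1440 higher to 861 and 847 without DAF replicate 2. Without iEF replicate 3 they were 1065 and 875. The calls with Δ22 over all genes went from 239 lower and 136 higher to 552 and 409 without WT-EF replicate 3. They fell to 39 and 15 without Δ22 replicate 2 and to 66 and 24 without iEF replicate 1. Between the rescues themselves, 25 of the 37 genes (67.6%) were lower and 2 (5.4%) higher with WT-EF than with DAF, against 16.1% and 12.4% of all genes. The median of that comparison was -1.25. The 2 genes higher with WT-EF than with DAF were *LAMA2* (0.84, SE 0.22) and *LAMB3* (0.63, SE 0.20). Neither was called without DAF replicate 1 or without DAF replicate 3, and *LAMB3* was also lost without the replicate block (adjusted p = 0.0970) and without WT-EF replicate 1 (0.33, adjusted p = 0.175). *LAMA4* was the only gene called lower with DAF than with Δ22, where 0.379% of all genes were lower and 0.948% higher, and no member was higher. At an unadjusted p under 0.05, 9 genes were lower and 2 higher in that comparison, where 2928 of all genes passed in either direction. DESeq2's Wald test called 5 members lower and none higher, against 308 lower and 469 higher of all genes.

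**Figure D2:**
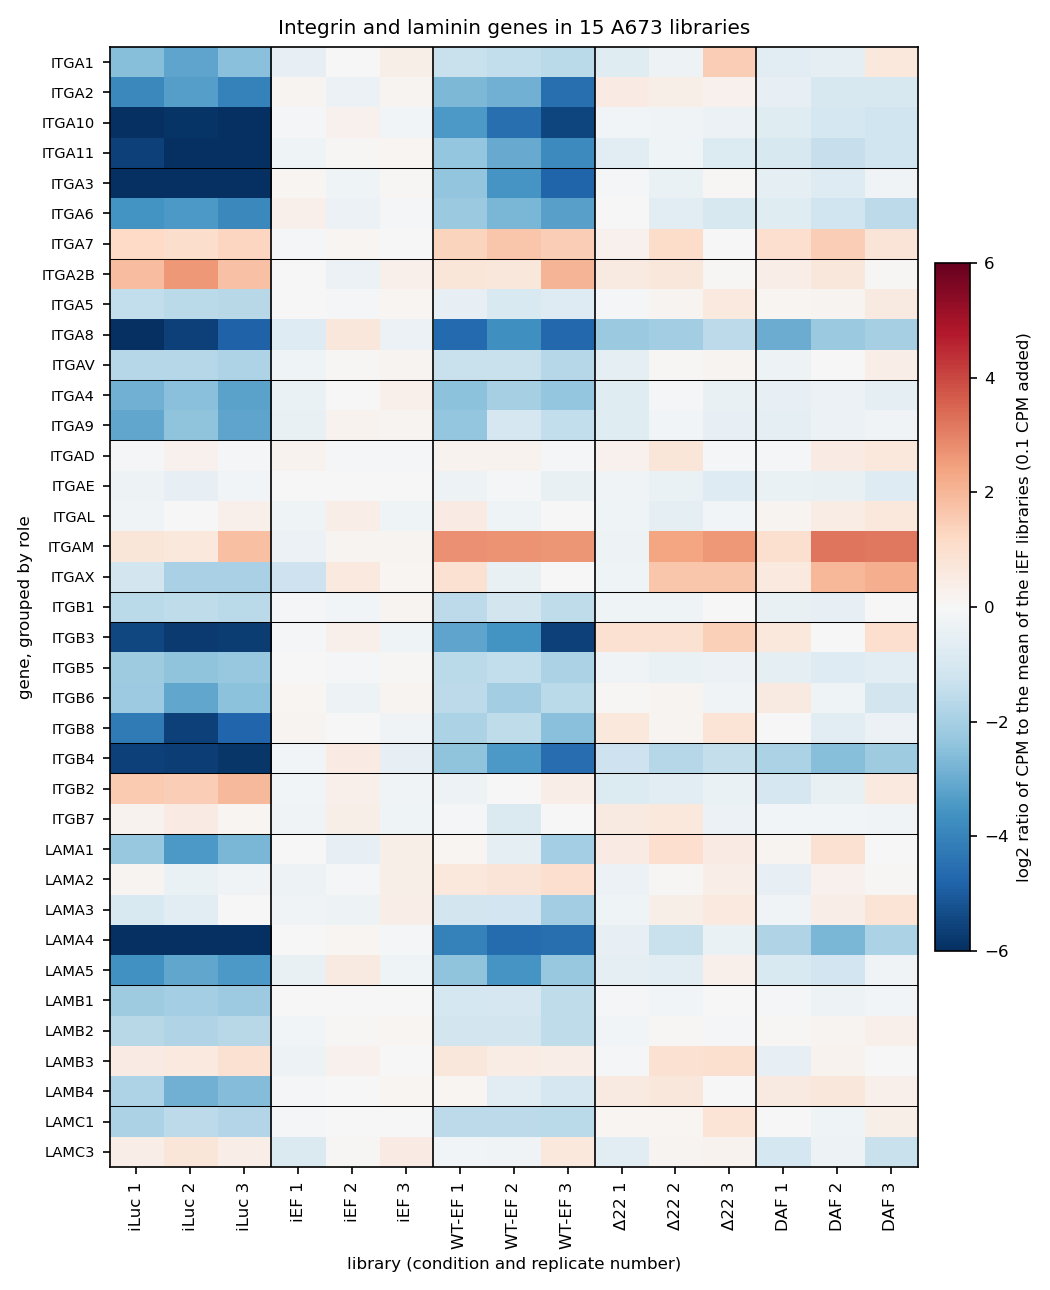
Each row is 1 of 37 of the genes, grouped by role, and each column is 1 of the 15 libraries. Color gives the log2 ratio of the CPM to the mean of the 3 iEF libraries after 0.1 CPM was added to both, with colors ending at 6 in either direction. The columns of iLuc and WT-EF, with 25 and 24 genes called lower, are mostly blue, and those of Δ22 and DAF, with 2 and 8, are paler.

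Laminin α chains differ in the receptors they bind, and give each laminin its tissue. *LAMA4*, the α chain typical of vessel walls, muscle and fat, had the largest decrease of all members in iLuc cells. It lies on chromosome 6 from 112429134 to 112576141 of GRCh37. *LAMA4* was at 2.54, 1.12 and 1.97 CPM in the 3 iLuc libraries, 257, 284 and 235 CPM in iEF and 15.3, 10.5 and 11.3 CPM in WT-EF libraries. It was at 181, 104 and 195 CPM with Δ22 and 74.5, 38.4 and 70.1 CPM with DAF. The iLuc, WT-EF, DAF and iEF libraries formed 4 levels in rising order with no overlap, and the Δ22 libraries lay between DAF and iEF. The log2 fold change against iEF was -7.18 (SE 0.27, adjusted p = 2.52e-10, edgeR) for iLuc and -4.44 (SE 0.23, adjusted p = 2.36e-08) for WT-EF. For DAF it was -2.17 (SE 0.20, adjusted p = 2.49e-05, edgeR), and for Δ22 it was -0.77 (SE 0.20, adjusted p = 0.0745). DAF was lower than Δ22, with a log2 fold change of -1.40 (SE 0.20, adjusted p = 0.00252, edgeR), which passed the threshold in 24 of 25 alternatives, with an adjusted p of 0.106 by DESeq2 on the ComBat-adjusted counts.

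*LAMA5*, the α chain of most mature basement membranes, was lower in iLuc as well. Its level was 1.44, 2.10 and 1.64 CPM in iLuc, 13.7, 27.1 and 15.9 CPM in iEF and 3.46, 1.56 and 3.86 CPM in WT-EF libraries, and 12.7, 11.97 and 23.05 CPM with Δ22 and 9.84, 8.34 and 16.1 CPM with DAF. The iLuc and WT-EF libraries lay under all the others, and those of iEF, Δ22 and DAF overlapped. Relative to iEF the log2 fold change was -3.46 for iLuc (SE 0.36) and -2.71 for WT-EF (SE 0.35), both called. *LAMA1*, the α chain of early embryonic basement membranes, was lower in iLuc (-4.02, SE 0.74) but rested on 0 to 4 counts per iLuc library, and its WT-EF value of -0.77 was not called. *LAMA2*, the α chain of muscle basement membrane, was higher with WT-EF than in iEF cells (0.83, SE 0.22, adjusted p = 0.0103, edgeR), at 5.40 to 6.98 CPM against 2.84 to 4.42 CPM. In iLuc cells *LAMA2* stood at 2.64 to 3.85 CPM and did not pass the test (-0.10). Without replicate 2 of every condition the adjusted p of *LAMA2* with WT-EF was 0.0827. *LAMA3*, the α chain of epithelial hemidesmosome attachment, was lower with WT-EF (-1.34, SE 0.30), and its iLuc value was -0.50 (adjusted p = 0.184, edgeR).

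The β and γ chains are the common partners of the α chains. *LAMB1* was at 164, 173 and 159 CPM in iLuc, 702, 697 and 729.7 CPM in iEF and 343, 349 and 244 CPM in WT-EF libraries. It was at 683, 634 and 695 CPM with Δ22 and 644, 582 and 623 CPM with DAF. WT-EF libraries thus lay between iLuc and iEF without overlap. For *LAMB1* the log2 fold change was -2.10 (SE 0.11) for iLuc and -1.19 (SE 0.11) for WT-EF against iEF.

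*LAMB2*, a β chain of vessels, kidney and nerve-muscle junctions, showed the same order. *LAMB2* was at 17.5, 15.9 and 17.7 CPM in iLuc, 49.4, 58.2 and 60.3 CPM in iEF and 25.6, 26.0 and 19.4 CPM in WT-EF libraries, and at 49.3, 58.01 and 53.99 CPM with Δ22 and 59.5, 62.6 and 68.1 CPM with DAF. Its log2 fold change was -1.71 for iLuc and -1.24 for WT-EF (SE 0.12 each), and 0.18 for DAF, which was not called. *LAMB3*, the β chain that joins *LAMA3* in epithelia, went the other way. It was higher in iLuc (0.68, SE 0.20, adjusted p = 0.0120, edgeR) and with WT-EF (0.56, SE 0.20, adjusted p = 0.0474). The WT-EF call held in 16 of 25 alternatives and was lost without iEF replicate 1, 2 or 3, WT-EF replicate 1 or DAF replicate 1 or 3, with an adjusted p up to 0.283, and the iLuc call was lost without iEF replicate 1 or 3 or iLuc replicate 3, with an adjusted p up to 0.0652. *LAMB4* was lower in iLuc (-2.98, SE 0.39), at 3 to 9 counts per library, and was not called with WT-EF (-0.55).

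*LAMC1*, the γ chain of nearly all laminins, was at 237, 301 and 265 CPM in iLuc, 854, 917 and 916 CPM in iEF and 298, 299.7 and 290.4 CPM in WT-EF libraries. It was at 958, 963 and 1604 CPM with Δ22 and 910.2, 737 and 1144 CPM with DAF, with replicate 3 the highest of both conditions. *LAMC1* had a log2 fold change of -1.74 (SE 0.16) in iLuc and -1.59 (SE 0.16) with WT-EF relative to iEF. The difference between WT-EF and iLuc was 0.15 (SE 0.16, adjusted p = 0.593, edgeR). *LAMC3* was at 0.0671 to 0.589 CPM and was not called in any comparison.

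**Figure D3:**
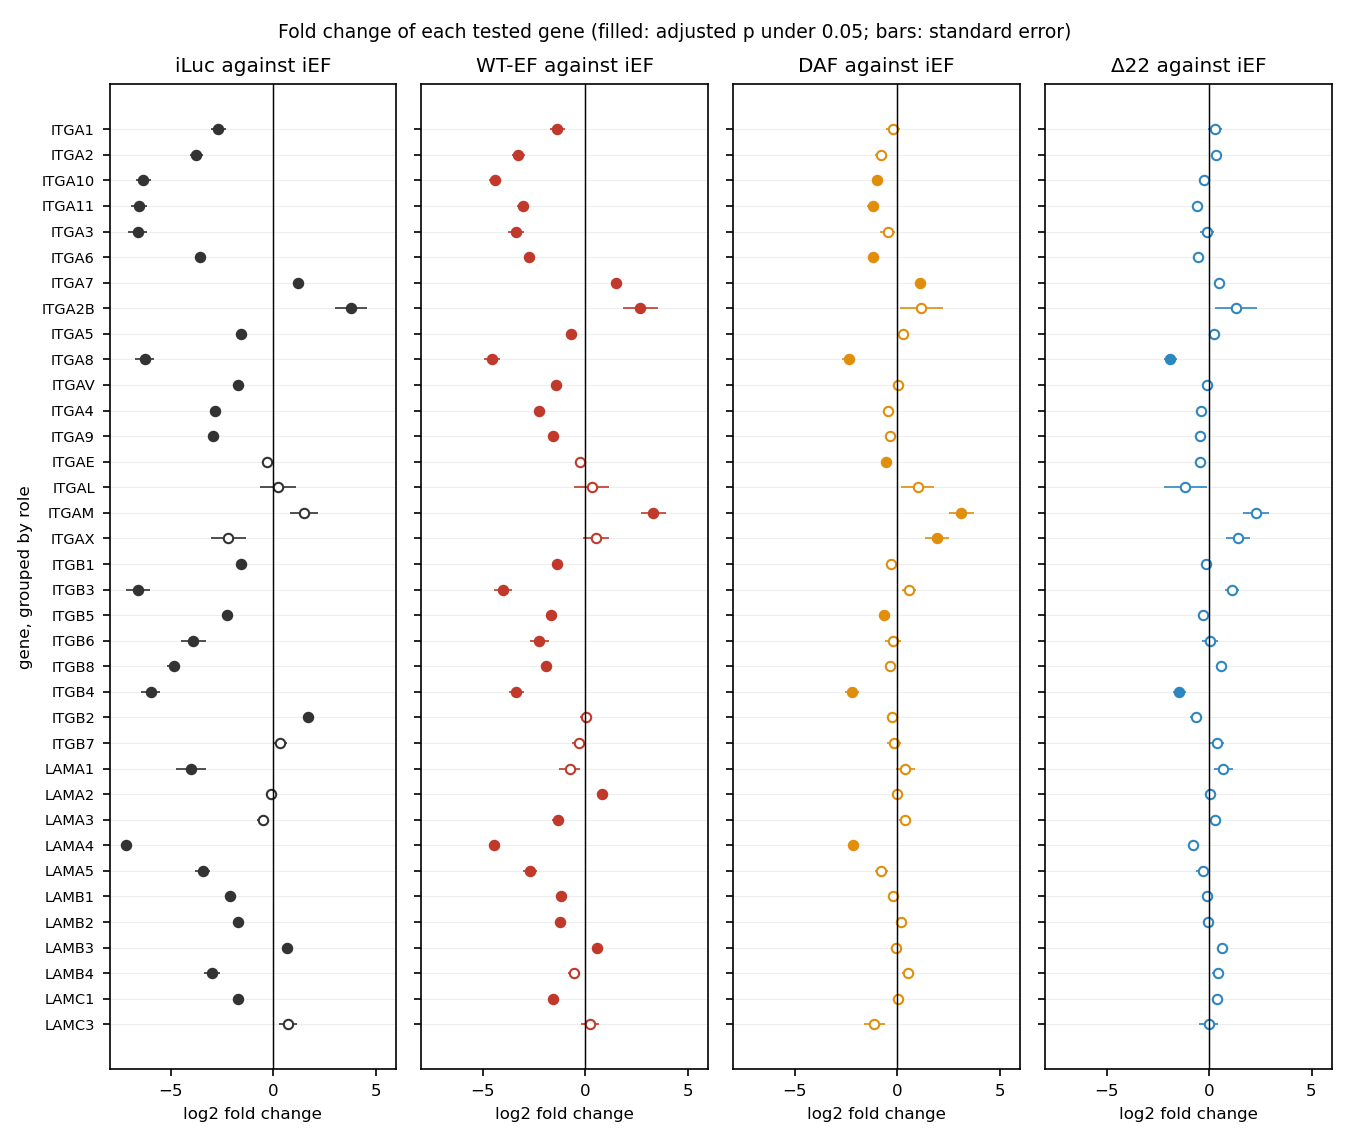
Log2 fold change against iEF (horizontal axis) of 36 of the genes tested, with standard errors as bars, for iLuc, WT-EF, DAF and Δ22. Filled points passed an adjusted p under 0.05; 28 points are filled for iLuc and for WT-EF, 11 for DAF and 2 for Δ22.

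Laminin-binding integrins pair *ITGA3*, *ITGA6* or *ITGA7* with *ITGB1*, or *ITGA6* with *ITGB4*. *ITGA3* was at 5.07, 3.56 and 2.12 CPM in iLuc, 375, 290.4 and 366 CPM in iEF and 66.8, 29.3 and 12.4 CPM in WT-EF libraries. It was at 320.1, 259.8 and 363 CPM with Δ22 and 236, 202 and 297 CPM with DAF. The WT-EF libraries were spread over a wide range, with replicate 1 the highest, yet did not reach the iEF, Δ22 or DAF libraries. For *ITGA3* the log2 fold change was -6.62 (SE 0.47, adjusted p = 4.72e-08, edgeR) for iLuc and -3.37 (SE 0.39, adjusted p = 1.39e-05) for WT-EF. For DAF it was -0.47 (SE 0.35, adjusted p = 0.485, edgeR).

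*ITGA6* lies on chromosome 2 from 173292082 to 173371187 of GRCh37 and was at 44.9, 50.1 and 36.6 CPM in iLuc, 671, 424 and 521 CPM in iEF and 113, 79.2 and 55.8 CPM in WT-EF libraries. It was at 530.3, 340.2 and 275 CPM with Δ22 and 323, 232 and 179.8 CPM with DAF. All DAF libraries were under all iEF libraries and above all WT-EF libraries. Against iEF the log2 fold change was -3.60 for iLuc, -2.75 for WT-EF, -1.17 for DAF (adjusted p = 0.000322, edgeR) and -0.54 for Δ22 (adjusted p = 0.111), with an SE of 0.16 or 0.17. *ITGB4*, the β subunit that joins *ITGA6* in hemidesmosomes, was at 0.428, 0.421 and 0.358 CPM in iLuc, 22.8, 36.3 and 18.3 CPM in iEF and 4.74, 2.25 and 0.985 CPM in WT-EF libraries. It was at 10.7, 7.90 and 9.61 CPM with Δ22 and 6.85, 4.25 and 5.80 CPM with DAF, all below the iEF libraries. Its log2 fold change was -6.0 (SE 0.44) for iLuc, -3.38 (SE 0.36) for WT-EF and -2.20 (SE 0.34) for DAF. With Δ22 the decrease of -1.45 (SE 0.33, adjusted p = 0.0472, edgeR) was called in only 6 of 25 alternatives. It was lost without any 1 library of iEF, Δ22, iLuc or DAF or without WT-EF replicate 2, and the adjusted p was 0.552 without replicate 2 of every condition. The DAF call of *ITGB4* had an adjusted p of 0.0554 without replicate 2 of every condition.

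*ITGA7*, the laminin receptor of muscle, was the exception among the laminin-binding subunits. *ITGA7* was at 8.59, 7.88 and 9.07 CPM in iLuc, 3.52, 3.98 and 3.64 CPM in iEF and 9.39, 12.2 and 10.4 CPM in WT-EF libraries. With Δ22 it was at 4.45, 7.95 and 3.75 CPM and with DAF at 7.59, 10.3 and 6.40 CPM. The iLuc, WT-EF and DAF libraries all lay above the iEF libraries, and the Δ22 libraries overlapped them. *ITGA7* had a log2 fold change of 1.21 for iLuc, 1.51 for WT-EF and 1.10 for DAF (SE 0.20 each, adjusted p = 0.000172, 4.47e-05 and 0.00268, edgeR). The DAF call had an adjusted p of 0.0551 without replicate 1 of every condition.

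All 4 collagen-binding α subunits, which pair with *ITGB1*, were lower in iLuc and with WT-EF, with a median log2 fold change of -5.05 and -3.16. Over all genes tested, 22.1% were lower in iLuc and 17.0% with WT-EF. *ITGA10*, a collagen receptor of cartilage, was at 0.550, 0.814 and 0.627 CPM in iLuc, 50.6, 64.01 and 47.7 CPM in iEF and 4.82, 2.25 and 1.09 CPM in WT-EF libraries. It was at 47.9, 46.6 and 41.8 CPM with Δ22 and 32.7, 25.7 and 23.6 CPM with DAF, and no library of DAF reached the lowest of iEF or Δ22. *ITGA10* had a log2 fold change of -6.35 (SE 0.35) for iLuc, -4.40 (SE 0.30) for WT-EF and -1.003 (SE 0.25, adjusted p = 0.0183, edgeR) for DAF. The DAF call was lost without iEF replicate 2 or 3 or any 1 DAF library, and held in 17 of 25 alternatives, with an adjusted p of 0.0563 without the replicate block. *ITGA11*, a collagen receptor of fibroblasts, was at 0.245, 0.140 and 0.149 CPM in iLuc, 13.8, 17.7 and 18.3 CPM in iEF and 3.21, 1.96 and 1.07 CPM in WT-EF libraries, and at 10.8, 13.9 and 9.22 CPM with Δ22 and 8.54, 6.33 and 7.21 CPM with DAF. It had 5 to 8 counts per iLuc library. Its DAF value of -1.20 (SE 0.26, adjusted p = 0.00771, edgeR) was lost without DAF replicate 2 or iEF replicate 3, at an adjusted p of 0.0648 and 0.0627. *ITGA11* differed from iEF by a log2 fold change of -6.55 (SE 0.38) for iLuc and -3.06 (SE 0.28) for WT-EF.

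*ITGA1* and *ITGA2* are neighbours on chromosome 5, and both were lower in iLuc and with WT-EF. *ITGA2* was at 4.49, 6.62 and 4.0 CPM in iLuc, 74.99, 52.4 and 74.2 CPM in iEF and 10.3, 8.98 and 2.80 CPM in WT-EF libraries, and at 93.98, 85.0 and 81.4 CPM with Δ22 and 47.8, 34.0 and 34.9 CPM with DAF. The DAF libraries lay below those of iEF, but the log2 fold change of -0.82 (SE 0.28, adjusted p = 0.0805, edgeR) did not pass the test. It was -3.75 for iLuc and -3.27 for WT-EF. *ITGA1* was at 19.1, 12.7 and 19.9 CPM in iLuc, 80.4, 116 and 144 CPM in iEF and 45.6, 41.2 and 37.4 CPM in WT-EF libraries. With Δ22 it was at 67.5, 91.1 and 319 CPM and with DAF at 71.6, 74.5 and 174 CPM, with replicate 3 standing far above the others in both. *ITGA1* differed from iEF by a log2 fold change of -2.69 (SE 0.37) for iLuc and -1.36 (SE 0.35, adjusted p = 0.00800, edgeR) for WT-EF, and the latter had an adjusted p of 0.0932 without replicate 2 of every condition. Genes on either strand overlap 13.8% of the exon bases of *ITGA1*, and the strand setting of the counting is not given in the sources used here.

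**Figure D4:**
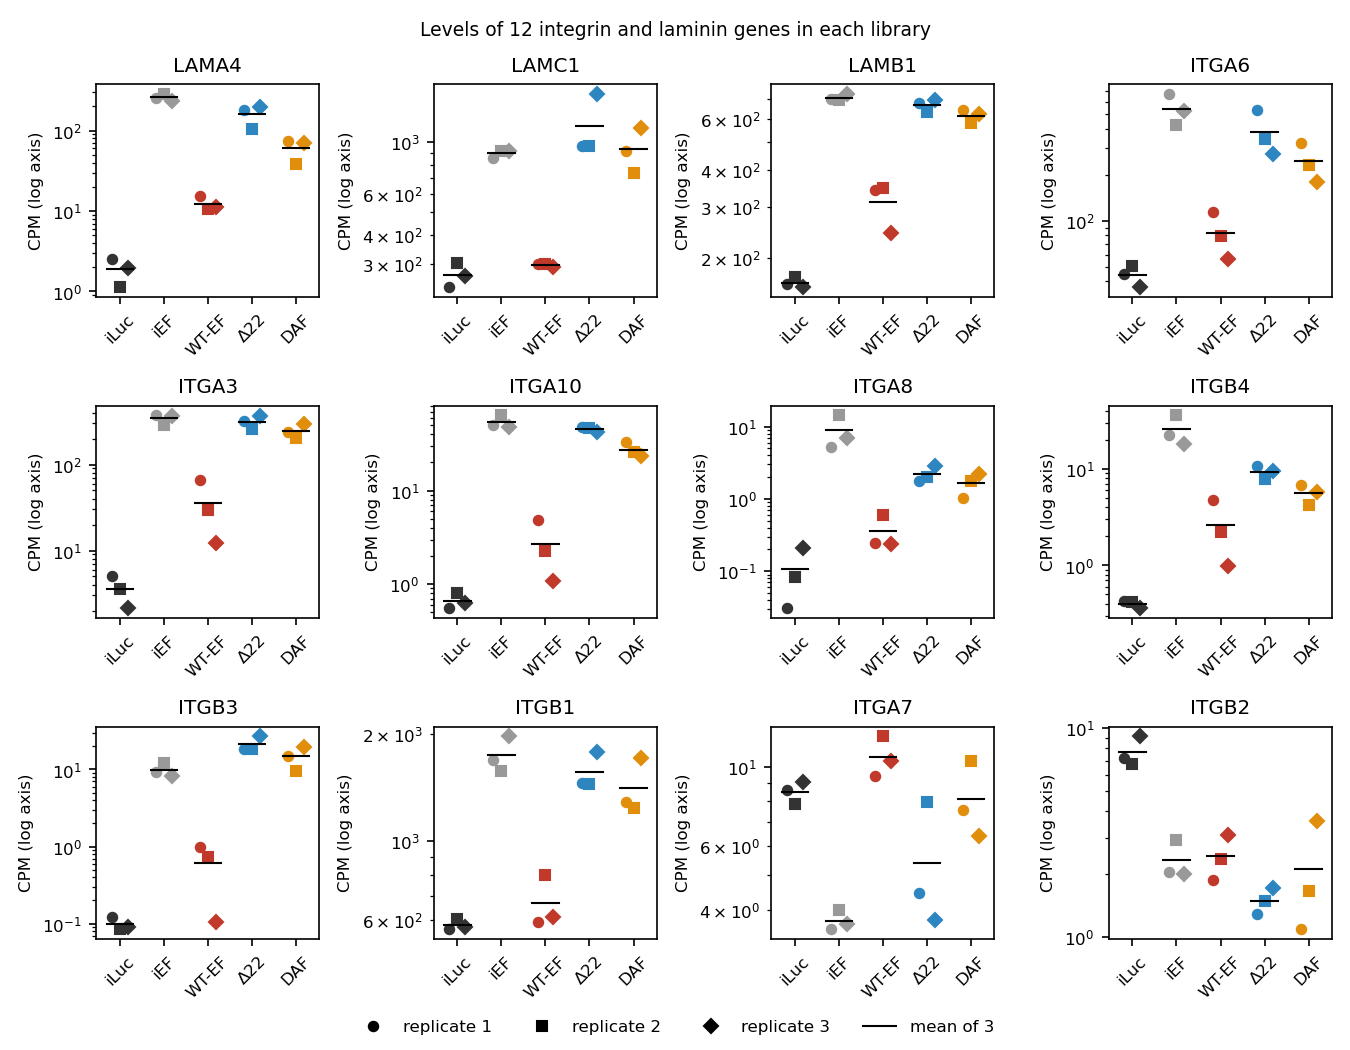
CPM on a log axis in each library for 12 of the genes, by condition, with a symbol for each replicate number and a line at the mean of 3. For LAMA4 the 3 iLuc libraries sit between 1.12 and 2.54 CPM and the 3 iEF libraries between 235 and 284 CPM, while ITGA7 and ITGB2 are higher in iLuc than in iEF.

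Integrins that recognize the RGD motif of fibronectin, vitronectin and related proteins contain *ITGA5*, *ITGA8*, *ITGAV* or *ITGA2B*. *ITGA8* had the largest decrease among them and was at 0.0306, 0.0842 and 0.209 CPM in iLuc, 5.20, 14.4 and 6.95 CPM in iEF and 0.249, 0.608 and 0.240 CPM in WT-EF libraries. It was at 1.79, 1.98 and 2.89 CPM with Δ22 and 1.02, 1.79 and 2.18 CPM with DAF, so that both mutants lay between WT-EF and iEF without overlap. The log2 fold change was -6.28 (SE 0.45) for iLuc, which rests on 1 to 7 counts per library, and -4.55 (SE 0.38) for WT-EF. It was -2.37 (SE 0.32, adjusted p = 0.000336, edgeR) for DAF and -1.91 (SE 0.32, adjusted p = 0.0101) for Δ22. The Δ22 call held in 20 of 24 alternatives and was lost without Δ22 replicate 2 (adjusted p = 0.101) or iEF replicate 1 (adjusted p = 0.0523).

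*ITGA5*, the fibronectin receptor subunit, was at 58.9, 53.2 and 51.9 CPM in iLuc, 163, 156 and 179 CPM in iEF and 117, 87.6 and 98.7 CPM in WT-EF libraries. With Δ22 it was at 155, 189 and 249 CPM and with DAF at 178, 187 and 239 CPM. WT-EF libraries lay between iLuc and the other conditions, at a log2 fold change of -1.60 for iLuc and -0.71 for WT-EF (SE 0.14 each). *ITGAV*, the α subunit shared by several β partners, was at 114, 113 and 105 CPM in iLuc, 313, 389 and 421 CPM in iEF and 149, 150.4 and 112 CPM in WT-EF libraries, and at 252, 389 and 425 CPM with Δ22 and 301, 374 and 487 CPM with DAF. The iLuc and WT-EF ranges of *ITGAV* overlapped, and their difference of 0.32 (SE 0.17, adjusted p = 0.237, edgeR) did not pass the test. Relative to iEF, *ITGAV* differed by -1.74 in iLuc and -1.42 with WT-EF (SE 0.18 each). *ITGA2B*, the platelet fibrinogen receptor subunit, had 0 to 2 counts per iEF library and 11 to 24 per iLuc library. Against the level of 3 counts per library, *ITGA2B* was at least 5.12-fold higher in iLuc than in iEF cells. With WT-EF it was also called higher, but had 4, 4 and 16 counts in the 3 libraries. That call was lost without WT-EF replicate 3 (adjusted p = 0.232), iEF replicate 1 or iEF replicate 2. The platelet markers *PF4*, *GP9* and *PPBP* were at 0 in every library.

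*ITGA4* and *ITGA9*, related α subunits that bind fibronectin, *VCAM1* or tenascin, were both lower in iLuc and with WT-EF. *ITGA4* was at 10.8, 13.8 and 8.51 CPM in iLuc, 59.96, 80.8 and 97.1 CPM in iEF and 14.5, 19.8 and 15.9 CPM in WT-EF libraries, and at 48.5, 75.2 and 58.1 CPM with Δ22 and 56.9, 62.05 and 53.3 CPM with DAF. For *ITGA4* the log2 fold change was -2.85 for iLuc and -2.25 for WT-EF, although *CERKL*, on the opposite strand, overlaps 26.4% of its exon bases. *ITGA9* was at 0.886, 1.51 and 0.866 CPM in iLuc, 6.28, 9.85 and 9.45 CPM in iEF and 1.61, 4.12 and 2.98 CPM in WT-EF libraries. It was at 5.07, 7.67 and 5.97 CPM with Δ22 and 5.73, 6.75 and 7.28 CPM with DAF, ranges that overlapped iEF. For *ITGA9* the log2 fold change was -2.97 for iLuc and -1.59 for WT-EF, and WT-EF stood above iLuc by 1.38 (SE 0.22, adjusted p = 0.000548, edgeR).

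Of the 8 β subunits, 6 were lower in iLuc and the same number with WT-EF, where 22.1% and 17.0% of all genes tested were lower. *ITGB1*, the β subunit of the collagen, laminin and fibronectin receptors, lies on chromosome 10 from 33176201 to 33294720 of GRCh37. It was at 563, 602 and 571 CPM in iLuc, 1681, 1567 and 1968 CPM in iEF and 590.0, 801 and 609.9 CPM in WT-EF libraries. With Δ22 it was at 1457, 1441 and 1776 CPM and with DAF at 1286, 1236 and 1712 CPM. *ITGB1* in iLuc and WT-EF libraries lay far under the others, at -1.58 and -1.38 relative to iEF (SE 0.13 each), and the difference between both was 0.20 (SE 0.13, adjusted p = 0.319, edgeR). For DAF it was -0.31 (adjusted p = 0.163, edgeR) and for Δ22 -0.16 (adjusted p = 0.682). Pseudogenes of *ITGB1* and *LAMB2* exist, so reads shared with them make their counts uncertain.

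*ITGB3*, *ITGB5*, *ITGB6* and *ITGB8* are partners of *ITGAV*. *ITGB3* was at 0.122, 0.0842 and 0.0896 CPM in iLuc, 9.25, 12.01 and 8.29 CPM in iEF and 0.997, 0.740 and 0.107 CPM in WT-EF libraries. It was at 18.5, 18.5 and 27.05 CPM with Δ22, above all iEF libraries, and 15.1, 9.60 and 19.6 CPM with DAF. *ITGB3* differed from iEF by a log2 fold change of -6.60 (SE 0.57) for iLuc, from 3 to 4 counts per library, and -4.01 (SE 0.44) for WT-EF. The Δ22 value of 1.11 (SE 0.35, adjusted p = 0.147, edgeR) did not pass the test, and ENSG00000259753, on the same strand, overlaps 33.2% of the exon bases of *ITGB3*. WT-EF exceeded iLuc by 2.60 (adjusted p = 0.0224, edgeR quasi-likelihood test), a call that was lost without iLuc replicate 1, 2 or 3 or WT-EF replicate 1 or 2. By DESeq2 on the ComBat-adjusted counts the *ITGB3* difference was 0.51 (adjusted p = 0.292).

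*ITGB5*, a vitronectin receptor subunit, was at 83.7, 70.4 and 76.2 CPM in iLuc, 379, 345 and 386 CPM in iEF and 119.6, 133 and 98.01 CPM in WT-EF libraries, and at 315, 284 and 293 CPM with Δ22 and 256, 219 and 233 CPM with DAF. Its libraries formed the order iLuc, WT-EF, DAF, Δ22 and iEF with no overlap between any of the 5. The log2 fold change against iEF was -2.27 for iLuc, -1.66 for WT-EF and -0.65 for DAF (adjusted p = 0.000926, edgeR), and -0.32 for Δ22 was not called (adjusted p = 0.151). *ITGB8*, which takes part in TGF-β activation, was at 2.63, 0.982 and 1.79 CPM in iLuc, 58.1, 52.0 and 45.2 CPM in iEF and 13.96, 18.1 and 9.03 CPM in WT-EF libraries, and at 81.2, 57.7 and 90.04 CPM with Δ22 and 50.5, 33.3 and 40.7 CPM with DAF. Among genes called in both, *ITGB8* had a log2 fold change of -4.87 for iLuc but -1.90 for WT-EF, and WT-EF exceeded iLuc by 2.97 (SE 0.29, adjusted p = 1.35e-05, edgeR). *ITGB6*, an epithelial partner of *ITGAV*, had 0 to 3 counts per iLuc library and was at least 8.74-fold lower there than in iEF cells, and with WT-EF its log2 fold change was -2.25 (SE 0.48).

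Of the 4 leukocyte α subunits tested (*ITGAE*, *ITGAL*, *ITGAM* and *ITGAX*) none was called in iLuc against iEF cells, and of the leukocyte β subunits *ITGB2* and *ITGB7* the first was higher. Over all genes tested, 22.1% were lower and 19.5% higher in that comparison, so most were not called either. *ITGB2*, the β subunit of the leukocyte integrins, was at 7.21, 6.73 and 9.16 CPM in iLuc, 2.05, 2.93 and 2.01 CPM in iEF and 1.88, 2.38 and 3.09 CPM in WT-EF libraries. It was at 1.29, 1.49 and 1.72 CPM with Δ22 and 1.09, 1.66 and 3.59 CPM with DAF. The iLuc libraries stood above all the other 12. The log2 fold change of *ITGB2* was 1.71 (SE 0.27, adjusted p = 0.000105, edgeR) for iLuc and 0.03 (SE 0.27, adjusted p = 0.952) for WT-EF. In the direct comparison WT-EF was lower than iLuc (-1.67, SE 0.26, adjusted p = 0.000519, edgeR), and *ITGB2* was the only member lower with WT-EF than with endo-EF.

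*ITGAM* and *ITGAX*, α partners of *ITGB2* on myeloid cells, were low throughout. *ITGAM* was at 0.397, 0.365 and 0.955 CPM in iLuc, 0.131, 0.236 and 0.233 CPM in iEF and 1.88, 1.82 and 1.78 CPM in WT-EF libraries. With Δ22 it was at 0.147, 1.46 and 1.72 CPM and with DAF at 0.492, 2.66 and 2.55 CPM, and replicate 1 was the lowest of both. The log2 fold change was 3.33 (SE 0.61, adjusted p = 0.000668, edgeR) for WT-EF and 3.13 (SE 0.61, adjusted p = 0.00406) for DAF, against 5 to 8 counts per iEF library. The DAF call of *ITGAM* had an adjusted p of 0.0885 without replicate 2 of every condition. For Δ22 it was 2.30 (SE 0.63, adjusted p = 0.0910, edgeR), which passed when Δ22 replicate 1 was left out, and for iLuc 1.49 (adjusted p = 0.0913). *ITGAX* was at 0.183, 0.0561 and 0.0597 CPM in iLuc, 0.158, 0.809 and 0.553 CPM in iEF and 1.02, 0.344 and 0.506 CPM in WT-EF libraries, and at 0.410, 1.85 and 1.82 CPM with Δ22 and 0.808, 2.30 and 2.65 CPM with DAF. The DAF value of *ITGAX* was 1.94 (SE 0.59, adjusted p = 0.0495, edgeR), with the lowest DAF library just under the highest iEF library, and it passed in 12 of 25 alternatives. Leaving out any 1 library of iEF or DAF, iLuc replicate 2 or 3, or Δ22 replicate 2 or 3 ended that call, with an adjusted p up to 0.198. The summed level of 5 leukocyte markers (*PTPRC*, *CD3E*, *CD14*, *CD68* and *LYZ*) was 1.93 to 4.86 CPM with DAF, 1.05 to 3.36 CPM with Δ22, 0.555 to 1.01 CPM with WT-EF, 1.66 to 2.12 CPM in iEF and 0.581 to 0.954 CPM in iLuc libraries. Most of the difference in this sum lay in *CD14*, with a mean of 0.050 CPM in iLuc, 1.25 in iEF, 0.306 with WT-EF, 1.30 with Δ22 and 2.36 with DAF. *PTPRC*, the general leukocyte marker, was at a mean of 0.620, 0.599, 0.394, 0.576 and 0.634 CPM in the same order. *CD3E* had no count in iLuc, iEF and WT-EF libraries, and the part of such markers in the values of *ITGAM* and *ITGAX* was not tested.

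*ITGAE*, the α partner of *ITGB7* on intraepithelial lymphocytes, was at 17.4, 15.1 and 19.5 CPM in iLuc, 21.7, 20.9 and 22.3 CPM in iEF and 17.5, 20.7 and 15.9 CPM in WT-EF libraries, and at 18.5, 16.5 and 12.8 CPM with Δ22 and 16.3, 15.9 and 12.8 CPM with DAF. The DAF decrease of -0.53 passed the test (SE 0.15, adjusted p = 0.0291, edgeR), and all DAF libraries lay below the iEF libraries. It was called in 15 of 25 alternatives and was lost without any 1 library of iEF or DAF or without Δ22 replicate 2, with an adjusted p up to 0.156. *ITGB7* was at 0.344 to 1.15 CPM and *ITGAL* at 0 to 4 counts per library, and neither was called in any comparison. *ZNF740*, on the opposite strand, overlaps 42.3% of the exon bases of *ITGB7*.

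Levels of different genes were compared per kilobase of exon, as CPM divided by the length of all annotated exons of a gene, so that genes with many long alternative exons come out low. The laminin α genes summed to 0.859 ± 0.149 CPM per kb (SD, n = 3) in iLuc, 23.7 ± 2.31 in iEF, 1.75 ± 0.290 with WT-EF, 15.5 ± 4.40 with Δ22 and 6.96 ± 1.79 with DAF. *LAMA4* made up 90.9% of this sum in iEF cells, 86.2% with Δ22, 73.2% with DAF and 59.0% with WT-EF. In iLuc cells it made up 18.2%, and *LAMA3* was the leading α chain with 53.3%. *LAMA4* was followed by *LAMA5* in iEF, at 1.32 ± 0.502 against 21.6 ± 2.07 CPM per kb (SD, n = 3), a gap far over the spread, while *LAMA5*, *LAMA2* and *LAMA4* in iLuc cells lay between 0.120 and 0.157 CPM per kb with SDs of 0.0237 to 0.0594 and did not differ beyond it. *LAMB1* had the highest mean of the β chains in all 5 conditions, with 74.6% of their sum in iEF cells. In iLuc cells *LAMB1* held 47.3% and *LAMB3* 39.4% of the sum. Their levels there, 8.88 ± 0.373 and 7.40 ± 1.21 CPM per kb (SD, n = 3), overlapped within the SDs. *LAMC1* made up 96.8% to 99.2% of the γ chain sum in every condition.

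**Figure D5:**
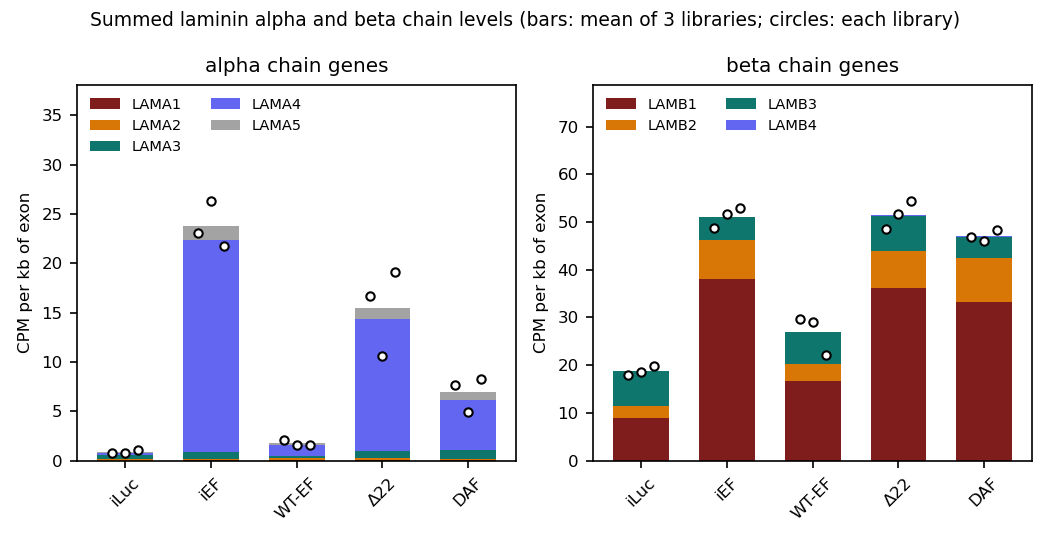
Stacked bars give the mean of 3 libraries, in CPM per kb of exon, for each laminin α and β chain gene by condition, and circles give the sum in each library. The α chain sum is 23.7 CPM per kb in iEF and 0.859 in iLuc, and LAMA4 fills most of it in every condition but iLuc.

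All laminin chains together summed to 51.6 ± 4.16 CPM per kb in iLuc, 183.0 ± 6.84 in iEF, 64.1 ± 5.05 with WT-EF, 210.7 ± 51.8 with Δ22 and 167.4 ± 28.1 with DAF (SD, n = 3). The iEF sum was 3.55 times that of iLuc and 2.86 times that of WT-EF (p = 0.1 each, exact two-sided permutation test, the smallest p that 3 against 3 libraries allow), or 3.06 and 2.44 times without TMM scaling. Integrin α subunits summed to 26.7 ± 1.52 CPM per kb in iLuc, 195.9 ± 19.7 in iEF, 47.0 ± 10.3 with WT-EF, 172.4 ± 11.0 with Δ22 and 134.9 ± 9.60 with DAF (SD, n = 3). *ITGA6* led the α subunits in iEF cells with 41.2% of the sum, followed by *ITGA3* with 17.9%. *ITGA6* had the highest mean in Δ22 and DAF cells too. With Δ22 its level of 57.1 ± 19.9 CPM per kb overlapped the 32.1 ± 5.28 of *ITGA3* within the SDs (n = 3). With DAF its level of 36.7 ± 10.9 CPM per kb did not differ from the 27.3 ± 4.51 of *ITGA5* beyond the SDs (n = 3). *ITGA5* led in iLuc (27.7%) and WT-EF (29.1%) cells, where it did not differ from *ITGA6* beyond their SDs. Integrin β subunits summed to 53.0 ± 0.464 CPM per kb in iLuc, 185.5 ± 15.2 in iEF, 65.6 ± 10.4 with WT-EF, 162.7 ± 14.4 with Δ22 and 139.5 ± 19.0 with DAF (SD, n = 3). *ITGB1* made up 64.4% to 75.0% and *ITGB5* 22.2% to 30.6% of the β subunit sum in each condition.

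Genes for proteins of the adhesion plaque were mostly lower in iLuc cells. Of 34 plaque genes tested, 30 were lower and 1 higher in iLuc than in iEF, with a median log2 fold change of -1.37, or -1.29 with genes at or under 3 counts per library in a group set to their bound. With WT-EF 23 were lower and 2 higher (median -0.74, or -0.65 at the bounds), with DAF 1 was lower and 2 higher (median 0.10), and with Δ22 1 was lower and none higher (median 0.02). Over all genes tested 22.1% were lower and 19.5% higher in iLuc, 17.0% and 12.9% with WT-EF, 6.19% and 5.00% with DAF, and 0.830% and 0.472% with Δ22, so the plaque counts with DAF were near or under those shares. *TNS3*, a tensin that links integrins to actin, was at 0 counts in all iLuc libraries, at 1.68 ± 0.191 CPM in iEF and at 0.180 ± 0.0889 CPM with WT-EF (SD, n = 3). It was at 4.13 ± 2.32 CPM with Δ22 and 3.54 ± 2.16 CPM with DAF, and neither was called against iEF. *TGFB1I1*, the paxillin relative HIC-5, was at 0.893 ± 0.305 CPM in iLuc, 18.8 ± 2.43 CPM in iEF and 4.17 ± 1.83 CPM with WT-EF (SD, n = 3), a log2 fold change of -4.42 for iLuc and -2.23 for WT-EF. With Δ22 it was at 17.5 ± 2.90 CPM and with DAF at 14.5 ± 1.77 CPM, and neither was called against iEF.

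Of 26 genes for basement membrane partners of laminins, 12 were lower and 3 higher in iLuc than in iEF (median -0.77, or -0.46 at the bounds), against 22.1% and 19.5% of all genes. With WT-EF 13 were lower and 3 higher (median -0.59, or -0.48), against 17.0% and 12.9%. With DAF 4 were lower and 3 higher (median -0.01, or 0.00 at the bounds), against 6.19% and 5.00%, and with Δ22 2 were lower and none higher (median -0.05, or -0.02), against 0.830% and 0.472%. *NID1*, the nidogen that joins laminin to collagen IV, was at 1.37 ± 0.310 CPM in iLuc, 29.1 ± 4.38 in iEF, 3.41 ± 0.332 with WT-EF, 11.9 ± 2.50 with Δ22 and 7.28 ± 0.950 with DAF (SD, n = 3). *NID1* was called lower in all 4 conditions, at log2 fold changes of -4.40, -3.10, -1.30 and -2.004 against iEF (iLuc, WT-EF, Δ22 and DAF). *FRAS1*, a basement membrane protein of the FRAS and FREM complex, was lower in iLuc (-3.48) and with WT-EF (-1.50), and *FREM1*, of the same complex, was higher in iLuc (1.20), with WT-EF (1.61) and with DAF (1.68).

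Genes for integrin ligands other than collagens and laminins were mostly lower too. Of 36 listed genes 31 were tested, of which 22 were lower and 1 higher in iLuc (median -2.46, or -1.76 at the bounds), where 22.1% of all genes were lower and 19.5% higher. With WT-EF 21 were lower and 1 higher (median -1.44, or -1.39), against 17.0% and 12.9% of all genes. With DAF 5 were lower and 3 higher (median -0.28, or -0.23), against 6.19% and 5.00%, and with Δ22 2 were lower and none higher (median -0.12, or -0.09), against 0.830% and 0.472%. *THBS1*, thrombospondin 1, was at 1.01 ± 0.249 CPM in iLuc, 139.3 ± 47.3 in iEF, 3.83 ± 1.86 with WT-EF, 137.8 ± 31.6 with Δ22 and 70.6 ± 24.4 with DAF (SD, n = 3), and was called lower in iLuc and with WT-EF. *SPP1*, the RGD ligand osteopontin, had log2 fold changes against iEF of -8.45 for iLuc, -5.41 for WT-EF, -4.31 for DAF and -2.02 for Δ22. Each of these passed the test. *ICAM5*, an *ITGB2* ligand of neurons, was the gene higher in iLuc, by 1.29 (SE 0.28), and its WT-EF value was 0.11.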

How the data were processed

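RNA from 15 A673 libraries had been sequenced in pairs on an Illumina instrument after ScriptSeq library preparation. The authors aligned reads to hg19 with STAR (2.5.1b in the submitters' processing notes) and deposited whole-number counts per gene from htseq-count in intersection-strict mode; the strand setting is not given in the sources used here. The authors also deposited estimated counts adjusted with ComBat for the set of replicates, which were rounded and used in 1 alternative only. A further deposited file holds the authors' own fold changes and p-values and was not used, nor were 3 columns of the tables that belong to no sample. Integrins, laminins and all gene lists were chosen with earlier results of these data known.

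Counts were tested with edgeR 4.0.16 (R 4.3.3) by the quasi-likelihood test over all 15 libraries, with condition and replicate number as terms and TMM scaling, for the 28793 genes averaging at least 1 count per library. P-values were adjusted by Benjamini-Hochberg within a comparison, at 0.05, and a log2 fold change over 1 was the second limit. The script was tested on simulated counts. The replicate number entered because the study's methods treat each set of replicates as a batch. Deviations of same-numbered libraries from their condition means correlated with a median r of 0.147 over 30 pairs (-0.117 to 0.641), against -0.0797 over 60 pairs of different number. No replicate pair agreed within sampling noise (chi-square per gene 12.9 to 83.2 over 15 pairs). A total of 28659475 to 41859880 counts per library limits what can be said of genes near the floor of 3 counts. Fold bounds set a group with all libraries at or under 3 counts to that floor per library, and cover counting error only.

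Values in every library were given for members averaging at least 50 counts per library past both limits in iLuc against iEF whose replicate sets (3 of 3) shared the direction, and for members called with Δ22 or DAF against iEF or between both. Other members were given by range and counts. 1 member is included in counts, medians and sums but is otherwise not reported here. From each list up to 2 genes with the largest increase and 2 with the largest decrease in iLuc were named. Alternatives were DESeq2 1.42.0 (size factors in edgeR, the Wald test, and the ComBat-adjusted counts), no filter, a minimum mean of 10 counts, no replicate block, a fit of the 6 libraries compared, and leaving out each library or replicate set. Coordinates are of GRCh37 for genes and of GRCh38.p14 for RefSeq promoters; nothing was converted between builds.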

Additional observations from a re-analysis of the deposited data

How the results depend on the processing

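No member changed direction in any alternative among the pairs of gene and comparison that were called. Of 121 such pairs, the 7 alternatives of scaling, test, filter and block kept between 108 and 121, and the 18 that left out libraries kept between 96 and 120. The number of members called with Δ22 against iEF, 2 in the report, was 1 with DESeq2 size factors, 4 by DESeq2's Wald test, 11 with no filter on low counts, 1 with at least 10 counts per library and 4 in a fit of the 6 libraries compared. It ran from 0 to 7 when libraries were left out, with 7 without WT-EF replicate 3 and 0 without Δ22 replicate 2 or iEF replicate 1, and was 1 without any other single library of iLuc, iEF or DAF. With DAF against iEF, 11 in the report, it was 17 with no filter and ran from 5 to 13, with 7 without DAF replicate 2 or iEF replicate 3. For WT-EF against iLuc, 22 in the report, leaving out libraries gave 14 (without replicate 2 of every condition) to 27. For DAF against Δ22, 1 in the report, DESeq2's Wald test gave 5, no filter 8 and the 6-library fit 18. Leaving out libraries gave 1 to 5 there (5 without WT-EF replicate 3). The calls over all genes also moved in these alternatives. For DAF against Δ22 they went from 109 lower and 273 higher to 1333 and 1411 in the 6-library fit. For Δ22 against iEF they went from 239 lower and 136 higher to 552 and 409 without WT-EF replicate 3. For WT-EF against iLuc they went from 2601 lower and 3078 higher to 947 and 1121 without replicate 2 of every condition. With no filter, 730 of 44588 genes were lower and 784 higher for Δ22 against iEF. With no filter they were 2048 and 1888 for DAF against iEF, and 551 and 663 for DAF against Δ22. For Δ22 against iEF, DESeq2 size factors gave 209 lower and 150 higher. At least 10 counts per library gave 251 and 187 there, and the 6-library fit 289 and 231. Without Δ22 replicate 2 they were 39 and 15, and without iEF replicate 1 they were 66 and 24. Without the replicate block the pairing of libraries by number was dropped, 1 member was called with Δ22 against iEF, and 111 of the 121 called pairs were kept. The cause of these shifts was not tested. Leaving out libraries also leaves fewer samples, and no filter or a stricter one changes how many genes are tested. The ComBat-adjusted table lacks ITGA8 and ITGAD, and the stricter filter drops ITGA2B, ITGAL and ITGAD. Depth limits what can be said of genes with a few counts per library, such as ITGAL, ITGA2B and ITGB6.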

Other observations

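Some of the genes lie next to each other in the genome, and their values by library can be set side by side. ITGAM and ITGAX lie 22.2 kb apart on chromosome 16, with ITGAD within the same cluster, and with both Δ22 and DAF replicate 1 had the lowest level of either gene, while ITGAD had 0 to 3 counts per library. LAMB1 and LAMB4 lie 20.3 kb apart on chromosome 7, and LAMB4 was called lower in iLuc and not with WT-EF, where LAMB1 was called lower in both. ITGA1 and ITGA2 lie 30.1 kb apart on chromosome 5. With Δ22, replicate 3 was the highest of the 3 libraries for ITGA1 (319 CPM against 67.5 and 91.1 CPM) and the lowest for ITGA2 (81.4 CPM against 94.0 and 85.0 CPM). These values are descriptions, and no test of position was made.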
